A study of Mus musculus with 6 samples.

Results

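The genes described here encode the enzymes and transporters that take up glucose, break it down to pyruvate, turn pyruvate into lactate and export it, gate the entry of pyruvate into mitochondria, and run the pentose phosphate pathway. They were taken from a list of 36 genes, and the brightest probe set with exactly 1 gene symbol stood for each gene. Of these, 32 were measured among the 21789 such probe sets of the array. The other 4 were left out: Gapdh shares all its probe sets with other symbols, and Gpi1, Eno1 and G6pdx had no match in the probe annotation used here. RNA was measured on 1-colour Affymetrix whole-transcript arrays in BCR-ABL1-transformed mouse B cells of 2 genotypes, with 3 samples each. The KO samples carried Jup-/-, the loss of gamma-catenin, and the WT samples Jup+/+. Both were on the C57BL/6 background. In both, CD45.1+ mice first received CD45.2+ fetal liver cells of the given genotype, and at least 8 weeks later their whole marrow was infected with a retrovirus that expresses BCR-ABL1 and GFP and put into lethally irradiated CD45.1+ recipients. GFP+ B220+ BP-1+ CD45.2+ cells were sorted from the bone marrow at day 21. The labels give the loss of Jup for the grafted cells only, and every sample, WT included, was sorted for the GFP that marks BCR-ABL1. The samples are labelled as biological replicates. The labels give neither the ages of the animals nor whether a sample pooled several mice, and the tests measure the spread between these samples. The study is about gamma-catenin in the course of BCR-ABL1 leukaemia, and the comparison shows how these metabolic genes differ between cells without and with it.

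Glycolysis splits glucose into pyruvate in the cytosol. Hexokinases trap glucose in the cell, phosphofructokinase commits it to breakdown, and the lower steps recover energy as ATP. Proliferating lymphoid and leukaemic cells are known for turning much of their pyruvate into lactate, and for drawing ribose and reducing power from the pentose phosphate branch. MYC and the hypoxia-inducible factor HIF-1 are known activators of many of these genes and bind E-box and hypoxia response motifs.

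The promoters of 5 genes are shown: Aldoa, Tpi1, Pgam1, Pdk3 and Ldha. On the chosen probe sets, Aldoa, Tpi1, Pgam1 and Pdk3 are among the genes whose KO values lay below all WT values. They also had an unadjusted limma p under 0.05. Ldhb met both conditions as well and is not shown, and its window held 0 matches of the motif searched, ACGTG. Ldha encodes the enzyme that makes lactate, and its window held the most matches of the motif searched. Each window runs from 250 bases before to 50 bases after a RefSeq start (GRCm38.p6), read 5′ to 3′ on the gene's strand. Capitals mark ACGTG, a form of the core of the hypoxia response element, on either strand. Other forms of that core are neither marked nor counted. Aldoa and Ldha have several starts in the table. For Ldha the window with the most matches is given, and for Aldoa the first listed of 2 overlapping windows with 1 match each. The windows lie at chr7:126799205-126799504 on the minus strand (Aldoa), chr6:124814109-124814408 on the minus strand (Tpi1), chr19:41911621-41911920 on the plus strand (Pgam1), chrX:93832101-93832400 on the minus strand (Pdk3) and chr7:46845554-46845853 on the plus strand (Ldha).
Aldoa: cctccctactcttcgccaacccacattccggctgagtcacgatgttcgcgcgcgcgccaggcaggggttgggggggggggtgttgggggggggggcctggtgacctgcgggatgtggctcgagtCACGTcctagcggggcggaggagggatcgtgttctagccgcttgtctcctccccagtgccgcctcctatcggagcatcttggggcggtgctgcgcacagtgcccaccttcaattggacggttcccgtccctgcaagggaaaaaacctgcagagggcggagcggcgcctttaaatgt
Tpi1: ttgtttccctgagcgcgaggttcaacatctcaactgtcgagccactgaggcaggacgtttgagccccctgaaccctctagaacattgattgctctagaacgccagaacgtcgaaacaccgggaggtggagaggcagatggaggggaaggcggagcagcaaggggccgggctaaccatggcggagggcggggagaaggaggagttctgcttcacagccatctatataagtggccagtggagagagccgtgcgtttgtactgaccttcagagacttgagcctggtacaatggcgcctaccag
Pgam1: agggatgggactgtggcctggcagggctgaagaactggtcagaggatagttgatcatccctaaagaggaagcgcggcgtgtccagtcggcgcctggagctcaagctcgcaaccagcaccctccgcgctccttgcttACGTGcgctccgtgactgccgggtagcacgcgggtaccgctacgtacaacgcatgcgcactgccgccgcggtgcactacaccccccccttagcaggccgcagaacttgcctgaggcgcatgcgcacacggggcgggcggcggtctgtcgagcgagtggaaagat
Pdk3: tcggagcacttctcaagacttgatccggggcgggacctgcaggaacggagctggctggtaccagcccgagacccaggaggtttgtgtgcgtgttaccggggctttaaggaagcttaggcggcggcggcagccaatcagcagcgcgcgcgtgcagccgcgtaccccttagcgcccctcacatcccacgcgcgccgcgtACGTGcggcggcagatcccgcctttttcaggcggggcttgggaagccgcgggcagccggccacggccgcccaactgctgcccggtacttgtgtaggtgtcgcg
Ldha: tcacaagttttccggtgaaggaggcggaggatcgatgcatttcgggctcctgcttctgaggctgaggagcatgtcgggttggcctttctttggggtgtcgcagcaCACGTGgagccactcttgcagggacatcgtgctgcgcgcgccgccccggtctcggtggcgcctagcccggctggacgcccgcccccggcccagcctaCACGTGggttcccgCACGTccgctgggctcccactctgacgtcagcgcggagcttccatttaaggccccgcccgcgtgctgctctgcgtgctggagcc
The Ldha window held 5 matches, and 4 of them formed 2 copies of the palindromic E-box CACGTG, in which the motif reads on both strands. Aldoa, Pgam1 and Pdk3 had 1 match each, and the Tpi1 window had 0. The table holds windows for 35 of the 36 listed genes. Of their 50 windows 42% held ACGTG, against 19.6% of all 32851 windows, while CACGTG was in 10% of the member windows and 7.15% of all windows. GGGCGG, the GC box, was in 58% of the member windows and 35.7% of all windows, counted on either strand. These are matches of letters and not measured binding sites.

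**Figure D1:**
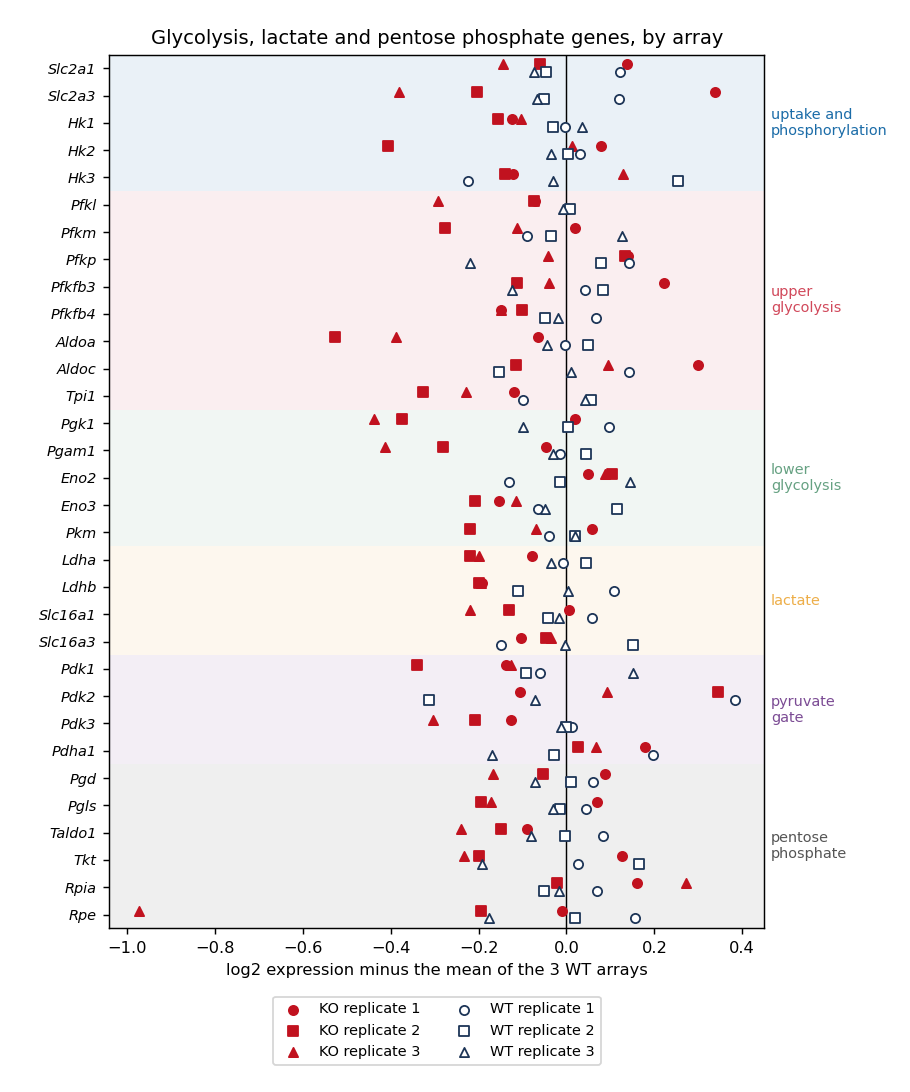
Log2 expression of each measured member on each array, as the difference from the mean of the 3 WT arrays, ordered by step of the pathway. Filled red symbols are KO arrays and open blue symbols are WT arrays. KO replicates 2 and 3 hold the lowest value of 23 of the 32 genes, and KO replicate 1 holds the lowest of 0. Hk1 is shown by its brightest probe set.

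Most glycolysis, lactate and pentose phosphate genes had a KO mean below the WT mean, and none passed the test. The KO mean was below the WT mean for 25 of 32 genes and above it for 7. The median log2 difference, KO minus WT, was -0.11, and over all probe sets tested it was -0.02 with 55.8% lower. No single member passed the test across the array: 0 of 32 were called higher and 0 lower in limma at an adjusted p under 0.05, where 0.0505% of all probe sets were called higher and 0.0688% lower. At an unadjusted limma p under 0.05, 5 members (15.6%) were lower, against 4.73% of all probe sets, and 0 were higher, against 4.48%. For 12 members (37.5%) every KO array lay below every WT array, a pattern seen in 8.08% of all probe sets. Hk1, Pgam1 and Ldhb are in this count by their brightest probe set. On other probe sets Pgam1 and Ldhb overlapped, and Hk1 was higher in every KO array. By the brightest probe sets, for 0 members did every KO array lie above every WT array, against 5.94% of all probe sets. The members were measured in the same 6 samples, so they are not independent of each other, and no filter on low values was applied. The 95% intervals of all 32 differences lay between -0.91 and 0.52.

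**Figure D2:**
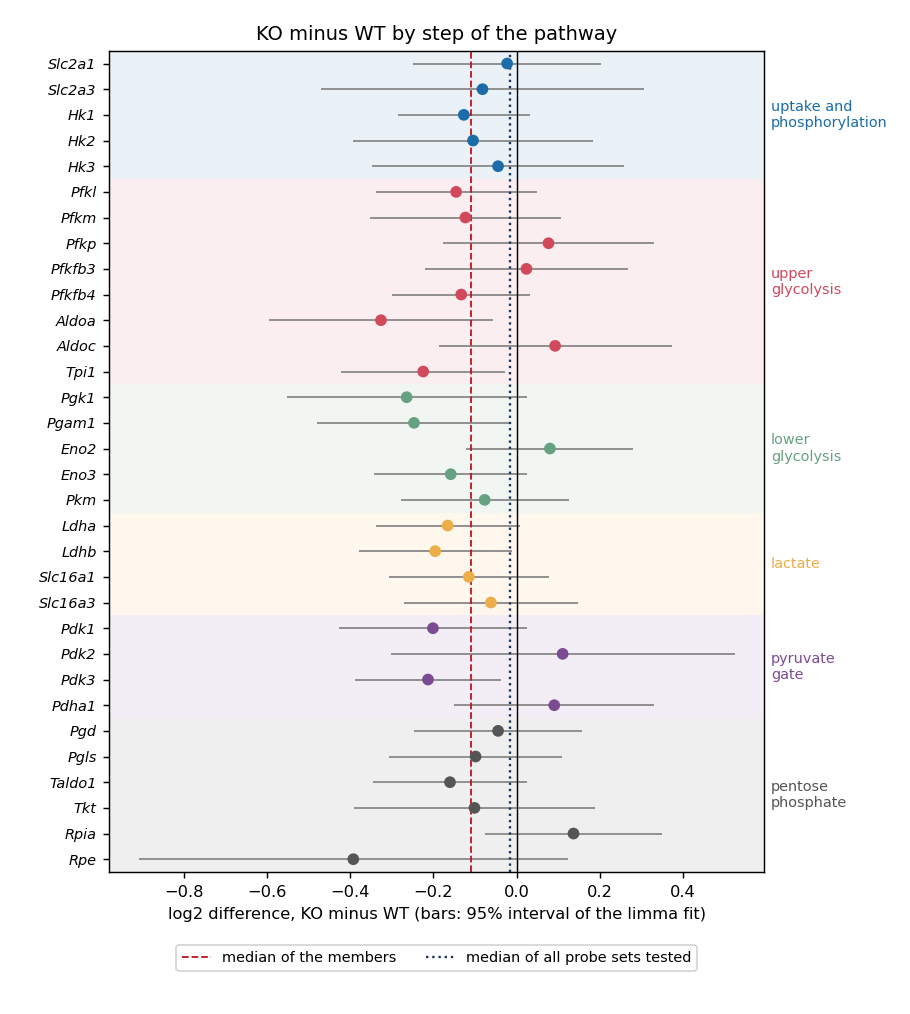
Log2 difference, KO minus WT, of each measured member with its 95% interval from the limma fit (3 KO and 3 WT arrays). The dashed line is the members' median of -0.11 and the dotted line is the median of all probe sets, -0.02. The intervals of Aldoa, Tpi1, Pgam1, Ldhb and Pdk3 lie below 0.

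The samples did not share the shift evenly. Averaged over the 32 genes after subtracting each gene's WT mean, KO replicates 1, 2 and 3 were at 0.01, -0.15 and -0.16, against 0.03, 0.00 and -0.04 in WT replicates 1, 2 and 3. KO replicate 1 thus lay among the WT arrays, and the other 2 KO arrays lay below all of them. In KO replicate 1, 16 of the 32 genes exceeded their WT mean, whereas KO replicate 2 had 4 such genes and KO replicate 3 had 7. The members' median was -0.18 without KO replicate 1 and -0.06 without KO replicate 2. The number of members at an unadjusted limma p under 0.05 and lower was 8 without KO replicate 1. It was 0 without KO replicate 2, 0 without KO replicate 3, and it was 3, 1 and 2 when WT replicate 1, 2 or 3 was left out. The share of all probe sets at that p was not counted with an array left out. Calls over all probe sets at a limma adjusted p under 0.05 changed too. They were 41 higher and 41 lower without KO replicate 1. Without KO replicate 2 they were 2 higher and 3 lower, and without KO replicate 3 they were 1 higher and 4 lower. The mean deviation from the WT mean over all probe sets stayed between -0.02 and 0.00 in KO arrays and between -0.01 and 0.01 in WT arrays.

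Several facts of the whole series stand beside these values. Jup itself measured 7.04, 7.06 and 7.27 in KO arrays, against 8.04, 7.62 and 8.51 in WT arrays, a log2 difference of -0.93 (limma SE 0.20, adjusted p = 0.171). The labels do not say which exons the KO allele has lost or where this probe set lies in the gene, so the value is a limited check of genotype. The sorted cells carried B cell transcripts in both genotypes, and the mean level of 9 B cell genes was 12.67 to 12.73 in KO and 12.66 to 12.71 in WT. Of 14 neutrophil and monocyte markers, 12 had a higher KO mean, and Csf1r and Cd14 had a lower one. For 9 of the 14 (64.3%) every KO array lay above every WT array, against 5.94% of all probe sets. Mpo, Elane and Ctsg were called higher at a limma adjusted p under 0.05, and 0 markers were called lower. The mean level of the 14 markers was 8.75 to 8.92 in KO and 7.90 to 8.43 in WT. Of 6 erythroid markers, Car1 alone was called higher (log2 difference 0.74, limma SE 0.09, adjusted p = 0.0307) and 0 were called lower. Of 8 stromal and endothelial markers, Sparc alone was called lower (log2 difference -0.96, limma SE 0.10, adjusted p = 0.0198) and 0 were called higher. Of 7 T and NK cell markers, 0 were called in either direction. None of the markers is at 0, since array values have no zero. Their part in the glycolysis values was not tested, and in bulk RNA fewer cells of a type and less RNA per cell cannot be told apart. The mean myeloid level was 8.79, 8.75 and 8.92 in KO replicates 1, 2 and 3. WT replicate 2 was the only array with high Y-linked RNA (Uty at 10.09, against 4.96 to 5.54 in KO arrays and 4.97 and 5.41 in the other WT arrays).

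Glucose uptake and trapping genes had 5 of 5 KO means below WT, by 0.02 to 0.13 on the log2 scale. Slc2a1, which encodes the glucose transporter GLUT1, measured 10.72, 10.53 and 10.44 in KO arrays, against 10.71, 10.54 and 10.51 in WT arrays. The groups overlapped almost fully, with a log2 difference of -0.02 and a 95% interval of -0.25 to 0.20. Slc2a3, which encodes the high-affinity transporter GLUT3, ranged from 8.61 to 9.33 in KO and from 8.92 to 9.11 in WT. Hk2, the inducible hexokinase of growing cells, measured 8.13, 7.65 and 8.07 in KO, against 8.08, 8.06 and 8.02 in WT. Only KO replicate 2 was low, and without it the log2 difference of Hk2 was 0.05 instead of -0.10. Hk3, a hexokinase of myeloid cells, was dim (mean below the 40th percentile of all probe sets) and gave a log2 difference of -0.04 with overlapping groups.

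Hk1, the hexokinase of most tissues, was measured by 2 probe sets that went opposite ways. The brighter one, which the selection takes, measured 13.37, 13.34 and 13.39 in KO and 13.49, 13.46 and 13.53 in WT (log2 difference -0.13, limma SE 0.07, adjusted p = 0.652). Its only listed accession also appears for probe sets that carry both the Rpl17 and the Hk1 symbol, so whether it measures Hk1 is uncertain. The other probe set, which lists RefSeq transcripts of Hk1, measured 9.47, 9.55 and 9.60 in KO, against 9.28, 9.29 and 9.24 in WT. All 3 KO arrays were above all 3 WT arrays, at 0.27 in log2 (limma SE 0.07), and the adjusted p of 0.286 missed the threshold. With that probe set in place of the brighter one, 24 of 32 members had a lower KO mean, 1 was higher at an unadjusted limma p under 0.05, and the members' median was -0.10.

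In upper glycolysis, 5 of 8 genes had a lower KO mean, and Aldoa and Tpi1 had the lowest differences. Aldoa, the aldolase that splits fructose bisphosphate, measured 12.03, 11.57 and 11.71 in KO arrays, against 12.09, 12.14 and 12.05 in WT arrays. KO replicates 2 and 3 were well below WT and KO replicate 1 was just below it. The KO mean was 11.77 ± 0.24 and the WT mean 12.09 ± 0.05 (SD, n = 3 each), which makes KO 1.25-fold lower, or -0.33 in log2 (limma SE 0.12, adjusted p = 0.443, not passing). Aldoa's difference ranged from -0.46 to -0.23 over all alternatives. Tpi1, the triosephosphate isomerase that follows aldolase, measured 11.49, 11.28 and 11.38 in KO and 11.51, 11.67 and 11.65 in WT. The groups came close but did not overlap, with a log2 difference of -0.22 (limma SE 0.09, adjusted p = 0.468).

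The phosphofructokinase genes, which encode subunits of the committed step, gave smaller values. Pfkl, the liver-type subunit, measured 9.45, 9.45 and 9.23 in KO, against 9.52, 9.53 and 9.51 in WT. The WT arrays were tight, and the KO arrays lay just below them except for the lower KO replicate 3 (log2 difference -0.15, limma SE 0.08, adjusted p = 0.679). Pfkm, the muscle-type subunit, gave a log2 difference of -0.12, and Pfkp, the platelet-type subunit, one of 0.08, both with overlapping groups. Of the enzymes that set the level of the activator fructose 2,6-bisphosphate, Pfkfb4 measured 7.20, 7.25 and 7.20 in KO, against 7.42, 7.30 and 7.33 in WT. It was lower in all 3 KO arrays, by 0.13 on the log2 scale (limma SE 0.07, adjusted p = 0.650). Pfkfb3, the inducible enzyme of that family, gave 0.02 and Aldoc, a second aldolase, gave 0.09, both with overlapping groups.

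In lower glycolysis, Pgk1 and Pgam1 had the lowest differences. Pgk1, which makes ATP from bisphosphoglycerate, measured 11.93, 11.54 and 11.48 in KO, against 12.01, 11.92 and 11.82 in WT. KO replicate 1 fell inside the WT range and the other KO arrays lay below it (log2 difference -0.26, limma SE 0.13, adjusted p = 0.590). Pgam1, the phosphoglycerate mutase that comes next, measured 11.60, 11.36 and 11.23 in KO and 11.63, 11.69 and 11.61 in WT. On this probe set all KO arrays were lower, KO replicate 1 by little, with a log2 difference of -0.25 (limma SE 0.10, adjusted p = 0.512). On the other probe sets of Pgam1 the groups overlapped, with KO replicate 1 at 11.38 and WT replicate 3 at 11.34. Both genes have 3 probe sets with the same listed accessions and nearly the same values (-0.26 each for Pgk1, and -0.24 to -0.25 for Pgam1), so their probe sets are not separate measurements and may include copies of these genes.

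Enolase and pyruvate kinase gave smaller differences. Eno3, the muscle enolase, measured 7.73, 7.67 and 7.77 in KO, against 7.82, 7.99 and 7.83 in WT. It was lower in all KO arrays (log2 difference -0.16, limma SE 0.08, adjusted p = 0.622). Eno2, the neuronal enolase, was dim and gave 0.08. Pkm, the pyruvate kinase that closes glycolysis, measured 11.59, 11.31 and 11.46 in KO and 11.49, 11.55 and 11.55 in WT. KO replicate 1 was the highest of all 6 arrays, so the groups overlapped, and the log2 difference was -0.08 with a 95% interval of -0.28 to 0.13.

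KO means were below WT means for all 4 genes of lactate production and export, and their median log2 difference was -0.14. Ldha, the lactate dehydrogenase subunit that favours lactate, measured 12.76, 12.62 and 12.64 in KO, against 12.83, 12.89 and 12.81 in WT. The KO arrays were all lower, by 0.17 in the mean (SE 0.08) or 1.12-fold (limma adjusted p = 0.575). Ldhb, the subunit that favours pyruvate, measured 6.19 in each of the 3 KO arrays and 6.49, 6.28 and 6.39 in WT. That is a log2 difference of -0.20 (limma SE 0.08, adjusted p = 0.509) on a dim probe set, and its second probe set gave -0.11 with overlapping groups. Slc16a1, the lactate exporter MCT1, measured 11.98, 11.85 and 11.76 in KO, against 12.04, 11.94 and 11.96 in WT, and KO replicate 1 lay inside the WT range (log2 difference -0.11, limma SE 0.08, adjusted p = 0.760). Slc16a3, the exporter MCT4, gave -0.06 with overlapping groups.

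The pyruvate gate was split. Pyruvate dehydrogenase kinases switch off the complex that feeds pyruvate to mitochondria, and Pdk1 and Pdk3 were both lower in every KO array. Pdk3 measured 10.36, 10.28 and 10.18 in KO and 10.50, 10.49 and 10.48 in WT, a log2 difference of -0.21 (limma SE 0.08, adjusted p = 0.443). Its WT arrays differed by little, and it held the lowest unadjusted p of the 32 probe sets chosen for the members (limma, 0.0228). Pdk1, which is a HIF-1 target, measured 10.04, 9.84 and 10.05 in KO, against 10.12, 10.09 and 10.33 in WT, with the groups close but apart (log2 difference -0.20, limma SE 0.10, adjusted p = 0.604). Pdk2 gave 0.11, and its WT arrays alone spanned 8.97 to 9.66. Pdha1, the catalytic subunit that these kinases act on, gave 0.09 with overlapping groups. Pgk1, Pdk3 and Pdha1 are X-linked, and without WT replicate 2, the array with high Y-linked RNA, they gave log2 differences of -0.26, -0.21 and 0.08, against -0.26, -0.21 and 0.09 with it.

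The pentose phosphate genes spanned log2 differences from -0.39 to 0.14. Pgd, which makes ribulose 5-phosphate and NADPH, gave -0.04, and Pgls, the lactonase before it, gave -0.10, both with overlapping groups. Taldo1, the transaldolase of the non-oxidative branch, measured 9.39, 9.33 and 9.24 in KO, against 9.56, 9.47 and 9.40 in WT. All KO arrays were lower, although KO replicate 1 and WT replicate 3 nearly met (log2 difference -0.16, limma SE 0.08, adjusted p = 0.619). Tkt, the transketolase, gave -0.10, and Rpia, the isomerase that makes ribose 5-phosphate, gave 0.14, the highest difference of all 32 genes.

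Rpe, the epimerase of the same branch, had the lowest difference of all members, and a single array set it. It measured 10.35, 10.17 and 9.39 in KO, against 10.52, 10.38 and 10.19 in WT. KO replicate 3 was far below the other 5 arrays. The log2 difference was -0.39 (limma SE 0.23, adjusted p = 0.670), and it was -0.10 without KO replicate 3.

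**Figure D3:**
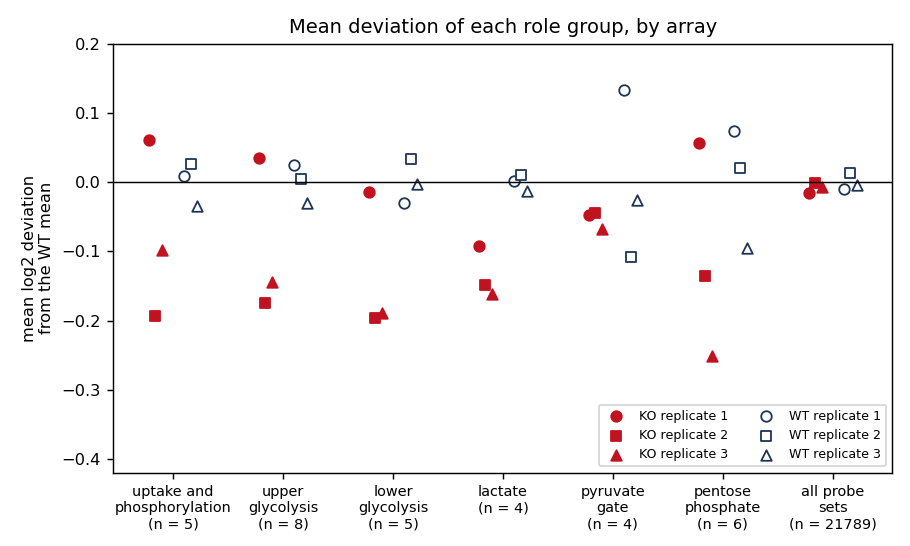
Mean log2 deviation from the WT mean of the genes of each role group, by array, with all 21789 probe sets at the right. Filled red symbols are KO arrays and open blue symbols are WT arrays. KO replicates 2 and 3 lie below all WT arrays in every role group except the pyruvate gate, while KO replicate 1 does so only for the lactate genes.

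By step of the pathway, the lower glycolysis genes had the lowest median log2 difference (-0.16, 5 genes), followed by lactate (-0.14, 4 genes), upper glycolysis (-0.13, 8 genes), pentose phosphate (-0.10, 6 genes), uptake and phosphorylation (-0.08, 5 genes) and the pyruvate gate (-0.06, 4 genes). The order of the groups was not tested. In the lactate genes the mean deviation was -0.09, -0.15 and -0.16 in KO replicates 1, 2 and 3, against 0.00, 0.01 and -0.01 in WT, so in this mean the KO arrays lay below WT together. KO replicate 1 lay below all WT arrays for 2 of these 4 genes, the dim Ldhb among them. Of all 21789 probe sets, 5245 had KO replicate 1 below all WT arrays. In the pentose phosphate genes KO replicate 1 was at 0.06 and KO replicates 2 and 3 at -0.14 and -0.25, against 0.07, 0.02 and -0.09 in WT. A count of members lower in every KO array gave 4 of 8 in upper glycolysis, 2 of 5 in lower glycolysis, 2 of 4 for lactate, 2 of 4 at the pyruvate gate, 1 of 6 for pentose phosphate and 1 of 5 for uptake, the last being the uncertain Hk1 probe set. Of all probe sets tested, 8.08% showed this pattern. Groups of 4 to 8 genes are too small to rank the steps by these counts.

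**Figure D4:**
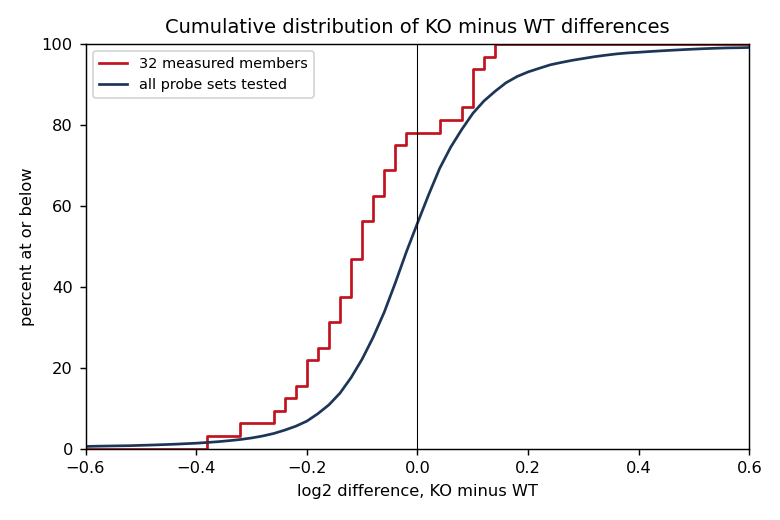
Cumulative percent of the 32 members (red steps) and of all 21789 probe sets (blue line) at or below each log2 difference, KO minus WT. At -0.10 the curves stand at 56.3% of the members and 22.2% of all probe sets.

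Neighbouring genes of sugar metabolism did not all follow. Among 15 further glycolytic isozymes and side enzymes the median log2 difference was 0.03, with 9 higher and 6 lower, and among 9 further sugar transporters it was -0.05. Of these, 9 isozymes and side enzymes and 4 transporters were dim, against 3 of the 32 members. In the limma fit 0 of these 24 genes passed an adjusted p under 0.05. Pgm2l1, a glucose 1,6-bisphosphate synthase, measured 9.98, 10.20 and 10.02 in KO, against 9.90, 9.74 and 9.55 in WT, higher in every KO array by 0.34 (limma SE 0.11, adjusted p = 0.380). Pgk2, a dim gene, was lower in every KO array (log2 difference -0.18, limma SE 0.08, adjusted p = 0.518). Of the 13 measured genes of pyruvate entry and its transport partners, 6 were higher and 7 lower, with a median of -0.01 and 0 past the threshold. Dld and Mpc1 were lower in every KO array, with log2 differences of -0.24 (limma SE 0.08, adjusted p = 0.409) and -0.15 (limma SE 0.07, adjusted p = 0.615). Emb, which encodes embigin, a membrane partner of lactate transporters, stood far from the rest of the 13 genes. It measured 9.42, 10.02 and 9.99 in KO, against 8.53, 7.95 and 8.58 in WT, or 2.75-fold higher, just short of the threshold (log2 difference 1.46, limma SE 0.21, adjusted p = 0.0622). Bsg, which encodes the related partner basigin, gave a log2 difference of -0.05.

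Prps2, a synthase of the ribose phosphate donor for nucleotides, measured 11.75, 11.61 and 11.56 in KO, against 11.95, 11.88 and 11.82 in WT. It was lower in every KO array, by 0.24 on the log2 scale (limma SE 0.08, adjusted p = 0.416), in a list of 8 further pentose and ribose genes with a median of -0.01 and 0 past the threshold. Among 24 regulators of glycolysis the median was 0.00, with 13 higher, 11 lower and 0 past the threshold. Myc was lower in every KO array, at 11.91, 11.40 and 11.64, against 12.33, 12.01 and 12.05 in WT (log2 difference -0.48, limma SE 0.14, adjusted p = 0.346). The relation of Myc to the members was not tested. Mycn, its relative, measured 8.10, 7.97 and 8.04 in KO, against 8.99, 8.98 and 8.39 in WT (log2 difference -0.75, limma SE 0.16, adjusted p = 0.166). Hif1a, the oxygen-regulated subunit of HIF-1, gave -0.03 with overlapping groups, and Epas1, its relative, gave 0.25 (limma SE 0.09, adjusted p = 0.413).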

How the data were processed

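RNA of 3 KO and 3 WT samples was measured, 1 array each, with samples grouped by their titles. The deposited values are log2 expression per probe set, which the authors computed by RMA; the submitters' processing notes name Affymetrix Expression Console 1.1 as the program. RMA makes array distributions alike and compresses changes of dim transcripts. Its options, its annotation and the genome build are not given in the sources used here. Array medians were 7.53 to 7.61, and precision is limited by there being 6 arrays.

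Of 35556 rows, 21789 had exactly 1 gene symbol in the platform annotation and were tested; 1621 had several symbols and 12146 were unnamed here. KO was compared with WT in R 4.3.3 by lmFit and eBayes of limma 3.58.1 (prior degrees of freedom 4.33), with no covariate and Benjamini-Hochberg adjustment over all 21789 probe sets, threshold 0.05. Differences are KO minus WT, SE and 95% intervals are moderated, and SD is between arrays. A probe set is called dim where its mean lies below the 40th percentile, as for 3 members. The members and lists were chosen with earlier results of these data known, so lists are described by counts and medians and not tested. Values on each array are given for members at an unadjusted p under 0.05, without overlap of the groups or with 1 of the 6 largest differences, and for Slc2a1, Hk2, Pfkl, Pkm, Ldha and Slc16a1; G6pdx, also on that list, was not measured. Of each other list, the 2 highest and 2 lowest genes by moderated t may be named; Bsg and Hif1a were named after their values were seen. Simulated arrays with planted shifts served to test the code. Alternatives were other probe filters, normalizations, priors, array weights, the replicate block and each array left out.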

Additional observations from a re-analysis of the deposited data

How the results depend on the processing

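With 3 arrays a genotype, the 95% intervals of the members reach 0.159 to 0.516 on each side. Under all 16 alternatives, 0 members passed in either direction, and the lowest limma adjusted p of a member was 0.127 (Aldoa without KO replicate 1). Of the 32 members, 21 kept their sign under every alternative that gave them a value, 18 lower and 3 higher; the filter on dim probe sets left out Hk3, Eno2 and Ldhb. Over the arrays left out in turn, the members' median ranged from -0.179 to -0.061, those with a lower KO mean from 22 to 27 and those lower at an unadjusted limma p under 0.05 from 0 to 8. The lactate median ranged from -0.186 to -0.112 and became -0.109 on quantile-normalized arrays. With arrays centred on their medians, 3 members were lower at an unadjusted limma p under 0.05. The share of all probe sets at that p was not counted with arrays left out or centred. The Hk1 probe set with RefSeq accessions, an alternative chosen after seeing the data, gave 1 higher.

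Over all probe sets the fit called 11 higher and 15 lower, and 1 to 41 higher and 3 to 41 lower with an array left out. Testing all 35556 probe sets gave 59 lower, the trended and robust prior 17 higher and 23 lower, array weights 93 higher and 57 lower, a further quantile normalization 7 higher, and median centring 17 higher. The causes were not tested.

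Signs turned for 11 genes. With array weights Slc2a1 was at 0.00089 and Pfkfb3 at -0.014. Over the arrays left out, Slc2a1 ranged from -0.103 to 0.038, Slc2a3 from -0.292 to 0.067, Hk2 from -0.197 to 0.046, Hk3 from -0.157 to 0.083, Pfkp from -0.033 to 0.147, Pfkfb3 from -0.075 to 0.091, Aldoc from -0.011 to 0.196, Slc16a3 from -0.136 to 0.014, Pdk2 from -0.045 to 0.302 and Pgd from -0.110 to 0.017. Hk1 was at 0.073 as the mean of its probe sets and at 0.272 by the probe set with RefSeq accessions.

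The labels do not say that same-numbered KO and WT arrays are pairs. Their deviations from the group means correlated at 0.104, -0.004 and 0.275 for replicates 1, 2 and 3. KO replicates 1 and 3 correlated best with the WT array of their own number, and KO replicate 2 with WT replicate 1 (0.134). With 3 arrays a genotype, these values cannot decide whether the arrays are paired. With the replicate number as a block, 8 probe sets were higher and 11 lower, 7 members were lower at an unadjusted limma p under 0.05, and 0 members passed. The share of all probe sets at that unadjusted p was not counted with the block, so the 7 members have no base rate beside them.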

Other observations

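Genes of the citric acid cycle and its cytosolic isozymes also had mostly lower KO means. Of 19 measured genes of the list, which holds the mitochondrial enzymes that burn the acetyl groups made from pyruvate and the cytosolic Aco1, Idh1 and Mdh1, 16 had a lower KO mean and 3 a higher one, with a median log2 difference of -0.10, and 7 were lower in every KO array (36.8%, against 8.08% of all probe sets). In limma 0 passed at an adjusted p under 0.05. At an unadjusted limma p under 0.05, 3 were lower (15.8%, against 4.73% of all probe sets). At that p 1 of the 19 was higher, against 4.48% of all probe sets. Suclg1, a subunit of succinyl-CoA synthetase, measured 9.93, 9.87 and 9.79 in KO, against 10.18, 9.98 and 10.09 in WT (log2 difference -0.22, limma SE 0.08, adjusted p = 0.461). Suclg2, another subunit, gave -0.24 (limma SE 0.09, adjusted p = 0.453). Idh1, the cytosolic isocitrate dehydrogenase that makes NADPH, went the other way at 0.33 (limma SE 0.12, adjusted p = 0.453), with KO replicate 1 inside the WT range. The list's mean deviation was 0.01, -0.12 and -0.14 in KO replicates 1, 2 and 3, against 0.07, -0.02 and -0.05 in WT replicates 1, 2 and 3, so KO replicate 1 again lay among the WT arrays.

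Of 8 genes of serine and one-carbon metabolism, which branch off glycolysis, 7 were lower in the KO mean (median -0.13), and 0 passed the limma threshold. Phgdh, the first enzyme of serine synthesis, measured 10.69, 10.42 and 10.44 in KO, against 10.69, 10.70 and 10.71 in WT, where KO replicate 1 was just below the WT arrays (log2 difference -0.19, limma SE 0.09, adjusted p = 0.591). KO means were also lower for all 6 genes of gluconeogenesis (median -0.12), of which 4 were dim and 0 passed in limma. Fbp1, a fructose bisphosphatase, gave -0.33 (limma SE 0.19, adjusted p = 0.664).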
